A study of Mus musculus with 8 samples.

Results

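Eif2b1, Eif2b2 and Eif2b4 encode the alpha, beta and delta subunits of eIF2B, and their transcripts were followed in mouse oligodendrocyte progenitor cells (OPCs) and in oligodendrocytes differentiated from them. The members were chosen by gene symbol, which gave 3 of the 10987 transcripts with deposited values. Transcripts of the gamma and epsilon subunits were not analysed here.

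eIF2B is the guanine nucleotide exchange factor of eIF2, the factor that carries the initiator methionyl-tRNA to the ribosome. After each round of initiation eIF2 is released bound to GDP, and eIF2B reloads it with GTP. The catalytic activity lies in the gamma and epsilon subunits, whereas the alpha, beta and delta subunits form the regulatory part that binds eIF2 phosphorylated on its own alpha subunit. Phosphorylated eIF2 inhibits eIF2B, which lowers general translation and starts the integrated stress response (ISR). Inherited mutations in any eIF2B subunit cause vanishing white matter, a leukodystrophy in which glia, including oligodendrocytes and astrocytes, are affected.

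The OPCs were derived from epiblast stem cells of the 129S/SvEv mouse strain, from male embryos per the methods of the study, and no allele or drug treatment separated the groups. They were grown with PDGFA and bFGF, each at 20 ng/mL. Oligodendrocytes were obtained from them after passages without bFGF, per the methods of the study. Differentiation medium held 40 ng/mL thyroid hormone (T3), 10 ng/mL NT3, 10 uM cyclic AMP, and IGF-1 and noggin at 100 ng/mL each. The groups thus differ in these added factors. For each cell type 2 cultures gave both a footprint and an RNA-seq library, which makes 8 libraries, and the lysates of several dishes were pooled in each culture. Per the study, the oligodendrocyte cultures still hold some undifferentiated OPCs, and in such bulk samples fewer cells of a type and less RNA per cell cannot be told apart.

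The 8 oligodendrocyte markers reported here, Cnp and Mag of myelin among them, were all called higher in oligodendrocytes and summed to between 35.3 and 37.7 FPKM in the RNA-seq of OPCs and to between 1859 and 2203 FPKM in that of oligodendrocytes, where FPKM are fragments scaled to transcript length and to the mapped reads of the library. The 8 proliferation markers were all called lower and summed to between 586 and 732 FPKM in OPCs and to between 175 and 188 FPKM in oligodendrocytes. The sum of the 6 OPC markers was not lower in oligodendrocytes (440.0 to 472 FPKM in OPCs, 815 to 899 FPKM in oligodendrocytes). In RNA-seq 4 of them, including Pdgfra, passed the test as higher. Gpr17 had the largest change among the 6, with 8.38 and 4.91 FPKM in OPCs against 221 and 271 FPKM in oligodendrocytes. Ptprz1 (log2 fold change 0.005) and Cspg5 (-0.10) did not pass. Astrocyte markers summed to between 403 and 443 FPKM in OPCs and to between 971 and 1096 FPKM in oligodendrocytes. The oligodendrocyte sum was mostly S100b (675 and 633 FPKM, against 20.6 and 12.6 FPKM in OPCs), which oligodendrocyte lineage cells express too. Gfap was at 0.155 and 0 FPKM in the RNA-seq of OPCs, against 14.2 and 2.11 FPKM in that of oligodendrocytes, and was called higher there. Footprints of Gfap were at 0 and 0 FPKM in OPCs, against 28.0 and 0 FPKM in oligodendrocytes, and did not pass. Slc1a2 was called higher in both readouts (13.5 and 10.6 FPKM in the RNA-seq of OPCs, against 47.6 and 36.5 FPKM in that of oligodendrocytes). Slc1a3, a glutamate transporter of the same list, was called lower in both readouts (136 and 181 FPKM in the RNA-seq of OPCs, against 74.3 and 74.3 FPKM in that of oligodendrocytes). The microglial gene Csf1r was at 0 FPKM in oligodendrocytes. In RNA-seq the 6 neuron and microglia markers summed to 21.8 and 15.5 FPKM in OPCs and to 44.2 and 47.6 FPKM in oligodendrocytes, mostly Tubb3. Footprints of the same markers summed to 47.8 and 50.0 FPKM in OPCs, against 105 and 134 FPKM in oligodendrocytes. Tubb3 was called higher in both readouts. These lists differ between the cell types, and their part in the eIF2B values was not tested. Depth, estimated from the smallest steps between FPKM values, ranged from 77.9 to 241 Mb (megabases) aligned in RNA-seq and from 93.0 to 249 Mb in footprints, with the lowest value of each in oligodendrocyte replicate 2. Such an estimate can be off by a whole-number factor, and the read numbers given for single transcripts would then be off by the same factor.

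The 3 genes differ in structure, which sets how many reads each can collect. Eif2b1 is found on the minus strand of chromosome 5 (GRCm38), between 124570213 and 124579131, with 9 exons and a coding sequence (CDS) of 305 codons in a transcript of 2013 bases. Eif2b2 is found on the plus strand of chromosome 12, between 85219481 and 85226628, with 8 exons, 351 codons and 1605 bases. Eif2b4 is found on the minus strand of chromosome 5, between 31187558 and 31193430, with 13 exons, 524 codons and 2025 bases, of which only 43 are 3′UTR.

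The sequence around each start codon is shown, from the Gencode transcripts on GRCm38, with the start codon in capitals and 9 bases before it.
Eif2b1: gaggaagccATGgaggacggtgagttaatt
Eif2b2: gtgttggaaATGccgggtgccgcggcgaag
Eif2b4: cccacagtcATGgctgcggtggcggtggct
All 3 carry G at the position -3 counted from the A of the start codon, where A or G was found in 86.0% of all listed transcripts. Eif2b1 and Eif2b4 also carry G directly after the start codon, whereas Eif2b2 carries C there. A or G at -3 together with G directly after the start codon was held by 45.3% of all transcripts. The Gencode transcript of Eif2b4 has a 5′UTR of 407 bases with 4 upstream ATGs, none of which lies inside the shorter RefSeq transcript, which starts 291 bases further downstream. The 5′UTRs of Eif2b1 (118 bases) and Eif2b2 (81 bases) hold no ATG, while 50.4% of all listed transcripts have at least 1. Footprints outside the CDS were not analysed, and the part of these sequences in the footprint values was not tested.

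In RNA-seq, each subunit was lower in both oligodendrocyte libraries than in either OPC library. Eif2b1, the alpha subunit, gave 22.3 FPKM in replicate 1 and 31.6 FPKM in replicate 2 of OPCs, against 17.0 and 10.2 FPKM in the same replicates of oligodendrocytes. Eif2b2, the beta subunit, gave 30.4 and 32.3 FPKM in OPCs, against 27.9 and 16.4 FPKM in oligodendrocytes. Eif2b4, the delta subunit, gave 11.3 and 12.7 FPKM in OPCs, against 8.08 and 6.25 FPKM in oligodendrocytes. The lowest value of every subunit was in oligodendrocyte replicate 2, and the groups did not overlap for any of the 3. Of all 8346 transcripts tested in RNA-seq, 44.2% had both oligodendrocyte libraries below both OPC libraries, so this order alone is common.

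Ribosome footprints, the mRNA fragments that a ribosome protects from nuclease, were also lower in both oligodendrocyte libraries for each subunit, by less. Footprints of Eif2b1 gave 46.6 and 63.3 FPKM in OPCs, against 40.7 and 30.01 FPKM in oligodendrocytes. Footprints of Eif2b2 gave 95.2 and 89.5 FPKM in OPCs, against 78.0 and 80.7 FPKM in oligodendrocytes. Footprints of Eif2b4 gave 34.4 and 35.5 FPKM in OPCs, against 28.7 and 34.0 FPKM in oligodendrocytes, so the nearest values of the groups were close together. This order was found for 37.9% of the 8342 transcripts tested in footprints.

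**Figure D1:**
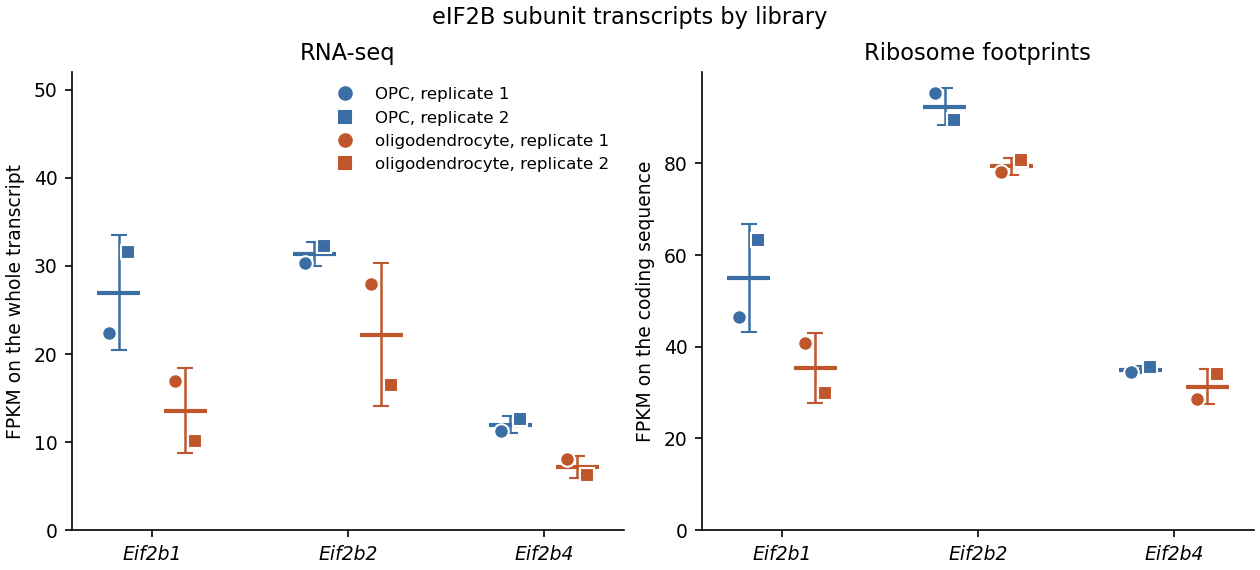
FPKM of Eif2b1, Eif2b2 and Eif2b4 in each library, RNA-seq on the left (whole transcript) and ribosome footprints on the right (coding sequence). Points are single libraries, horizontal lines are means and bars are ± SD (n = 2 cultures); every oligodendrocyte point lies below both OPC points of the same gene, with the closest approach for Eif2b4 footprints (34.4 against 34.0 FPKM).

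By group, the mean RNA-seq level of Eif2b1 went from 27.0 ± 6.52 FPKM in OPCs to 13.6 ± 4.84 FPKM in oligodendrocytes (± SD, n = 2 cultures in each group), a ratio of 0.503. That of Eif2b2 was 31.3 ± 1.35 and 22.2 ± 8.14 FPKM, a ratio of 0.709, and that of Eif2b4 was 12.0 ± 0.956 and 7.17 ± 1.29 FPKM, a ratio of 0.598. In footprints, the ratio of the oligodendrocyte to the OPC mean was 0.644 for Eif2b1 (55.0 ± 11.8 and 35.4 ± 7.57 FPKM), 0.859 for Eif2b2 (92.4 ± 4.05 and 79.4 ± 1.88 FPKM) and 0.896 for Eif2b4 (34.9 ± 0.775 and 31.3 ± 3.73 FPKM). Each ratio was thus closer to 1 in footprints than in RNA-seq.

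Differential abundance was tested across all transcripts with limma on log2(FPKM + 0.1), a scale that understates changes of low transcripts, with Benjamini-Hochberg adjustment and a threshold of 0.05. None of the 3 subunits passed in RNA-seq, although 2 of them, Eif2b1 and Eif2b4, had an unadjusted limma p-value under 0.05. Among all transcripts, 20.2% were called lower and 13.0% higher in oligodendrocytes, and the median log2 fold change was -0.23. The log2 fold change of Eif2b1 was -1.01 (standard error 0.32, 95% interval -1.80 to -0.22, limma adjusted p = 0.0570). With the cultures of the same number taken as pairs, by a replicate block, it passed at an adjusted p of 0.0353 in limma. The log2 fold change of Eif2b4 was -0.74 (standard error 0.26, 95% interval -1.38 to -0.10, limma adjusted p = 0.0756), and that of Eif2b2 was -0.54 (standard error 0.28, 95% interval -1.24 to 0.15, limma adjusted p = 0.186). The intervals leave room for a change of Eif2b2 between 0.424-fold and 1.11-fold.

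Relative to the median of all transcripts, the RNA-seq changes were -0.78 for Eif2b1, -0.51 for Eif2b4 and -0.31 for Eif2b2 on the log2 scale, and between 20.6% and 36.1% of tested transcripts had a lower value. Scaling each library by its median ratio moved the median of all transcripts by 0.18 to -0.047, and the share of calls that were higher in oligodendrocytes from 39.1% to 51.5%. With that scaling the log2 fold changes were -0.83, -0.56 and -0.36 in the same order. The size of the change depended on the oligodendrocyte culture. Without oligodendrocyte replicate 2, the shallowest RNA-seq library, they were -0.64, -0.56 and -0.16 (limma adjusted p = 0.198, 0.203 and 0.566). Without oligodendrocyte replicate 1 they were -1.38, -0.92 and -0.93, and Eif2b1 (limma adjusted p = 0.0333) and Eif2b2 (limma adjusted p = 0.0359) then passed.

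In footprints, none of the 3 subunits passed the threshold and none had an unadjusted limma p-value under 0.05, whereas 10.8% of all transcripts were called lower and 12.8% higher. The log2 fold change was -0.63 for Eif2b1 (standard error 0.26, 95% interval -1.34 to 0.07, limma adjusted p = 0.161). It was -0.22 for Eif2b2 (standard error 0.12, 95% interval -0.54 to 0.10, limma adjusted p = 0.253). It was -0.16 for Eif2b4 (standard error 0.18, 95% interval -0.65 to 0.33, limma adjusted p = 0.534), which equals the median of all transcripts (-0.16). In none of 12 alternative settings did a subunit pass in footprints. With 2 cultures in each group, a two-sided exact permutation test cannot give a p-value below 0.333, so these p-values depend on limma's pooling of variance over transcripts and measure only the spread between these cultures.

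**Figure D2:**
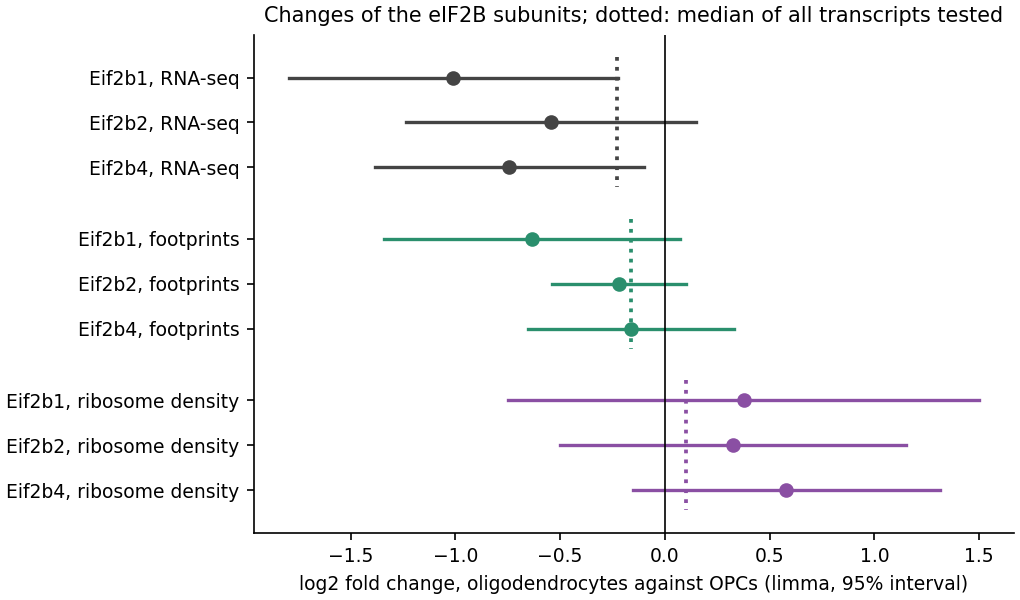
Log2 fold change of each subunit, oligodendrocytes against OPCs, in RNA-seq, footprints and ribosome density; points are limma estimates on log2(FPKM + 0.1), lines are 95% intervals and dotted lines are the medians of all transcripts tested (-0.23, -0.16 and 0.10). The intervals of Eif2b1 and Eif2b4 in RNA-seq lie below 0 before adjustment, and the other 7 intervals include 0.

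Ribosome density (RD) is the footprint FPKM divided by the RNA-seq FPKM of the same culture, and it is relative to the other transcripts of that culture. Eif2b1 had an RD of 2.08 and 2.01 in OPC replicates 1 and 2 and of 2.40 and 2.96 in oligodendrocyte replicates 1 and 2. Eif2b4 had an RD of 3.04 and 2.80 in OPCs and of 3.55 and 5.43 in oligodendrocytes. Eif2b2 had an RD of 3.14 and 2.77 in OPCs and of 2.79 and 4.91 in oligodendrocytes, so its groups overlapped, while those of Eif2b1 and Eif2b4 did not. Among the 6876 transcripts with an RD in all 4 cultures, 33.0% had both oligodendrocyte cultures above both OPC cultures. The median RD of all transcripts was 1.72 and 1.77 in OPCs and 2.02 and 1.95 in oligodendrocytes, and each subunit lay above it in every culture. Eif2b4 exceeded between 75.8% and 92.1% of transcripts, Eif2b2 between 70.0% and 89.7% and Eif2b1 between 57.4% and 71.5%.

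The change in RD was tested in a single limma model of the 8 libraries, by the term in which the cell type difference varies with the kind of library. No subunit passed and none had an unadjusted limma p-value under 0.05, in a test that called 0.0124% of all transcripts. The log2 change in RD was 0.38 for Eif2b1 (95% interval -0.75 to 1.501, limma adjusted p = 0.885), 0.33 for Eif2b2 (95% interval -0.50 to 1.15, limma adjusted p = 0.877) and 0.58 for Eif2b4 (95% interval -0.15 to 1.31, limma adjusted p = 0.875). The median over all transcripts was 0.10, and median-ratio scaling turned it to -0.057, below 0. Without oligodendrocyte replicate 2, the change was 0.23 for Eif2b1, 0.28 for Eif2b4 and -0.08 for Eif2b2, which turned its direction. As a fold, the interval of Eif2b4 runs from 0.899 to 2.49.

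**Figure D3:**
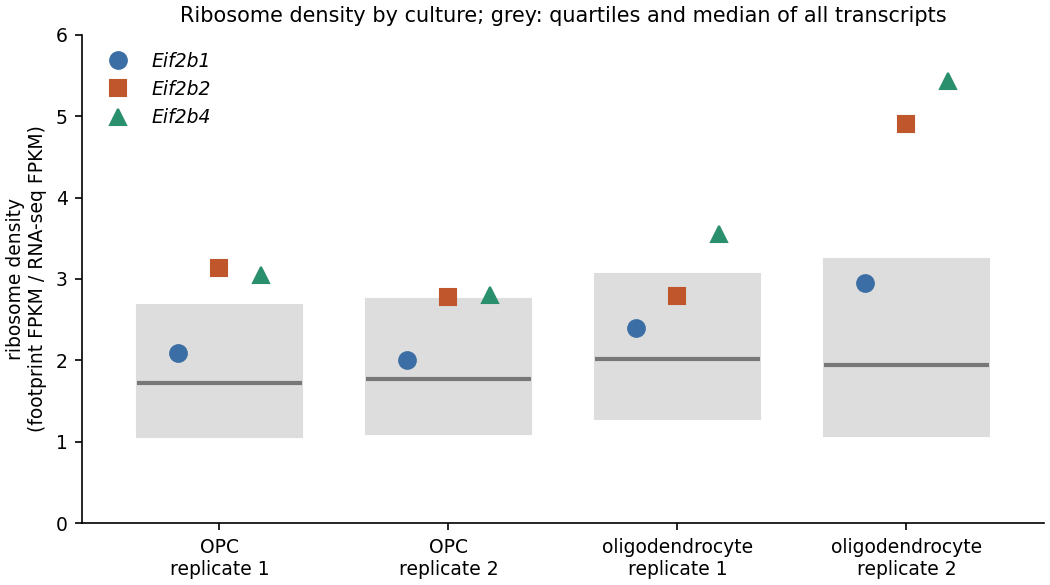
Ribosome density (footprint FPKM over RNA-seq FPKM) of the 3 subunits in each culture, with grey boxes from the lower to the upper quartile of all transcripts and a line at their median. All subunit points lie above the median, and the highest are Eif2b4 (5.43) and Eif2b2 (4.91) in oligodendrocyte replicate 2.

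The reads behind these values were few in the RNA-seq of oligodendrocytes. At 30 bases per read, Eif2b4 rested on an estimated 184 and 142 reads in OPCs and 65.6 and 32.9 reads in oligodendrocytes, the last with a counting error of 17.4%. Eif2b1 rested on 362, 352, 137 and 53.1 reads in the same order and Eif2b2 on 392, 287, 180 and 68.5 reads. Footprint reads were more numerous in oligodendrocytes, from 85.4 for Eif2b1 to 264 for Eif2b2 in replicate 2. These errors cover counting only, and both the reads and the errors rest on the depth estimated from FPKM steps, which can be off by a whole-number factor.

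In the Gencode vM21 annotation, the first exon of Eif2b4 overlaps 204 bases of Snx17, a sorting nexin gene on the opposite strand, and no strand setting is given in the study's code for the counting. In RefSeq the genes do not overlap, since Eif2b4 ends at 31193139 and Snx17 starts at 31193262 on chromosome 5. The deposited FPKM were made with vM9, which was not used here and in which the overlap may differ, so the values that follow hold only if vM9 has the vM21 overlap. Snx17 gave 68.1 and 64.9 FPKM in the RNA-seq of OPCs, against 74.9 and 62.2 FPKM in that of oligodendrocytes. With the vM21 overlap, the 204 bases at the level of Snx17 would equal 6.86 and 6.54 FPKM of Eif2b4 in OPCs, or 7.54 and 6.26 FPKM in oligodendrocytes, beside measured values of 11.3, 12.7, 8.08 and 6.25 FPKM. Without strand, RNA-seq reads of the shared bases cannot be told apart, and their part in the level, the change and the RD of Eif2b4 was not tested. No base of the vM21 overlap lies in the CDS, so footprint FPKM of Eif2b4 do not contain it. Of the 1984 words of 30 bases in Eif2b1, 40 occur in other genes, all of them in its 3′UTR, and Eif2b2 shares none.

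Among the subunits, Eif2b2 had the highest FPKM in each of the 8 libraries. In RNA-seq the order was Eif2b2, Eif2b1, Eif2b4 in every library, but Eif2b1 and Eif2b2 were close in OPC replicate 2 (31.6 and 32.3 FPKM). Within a library, the ratio of Eif2b2 to Eif2b1 in RNA-seq was 1.36 and 1.02 in OPCs and 1.64 and 1.62 in oligodendrocytes. Whether the subunits differ in level was not tested. In footprints the subunits were separated in OPCs, while in oligodendrocytes Eif2b1 (40.7 and 30.01 FPKM) and Eif2b4 (28.7 and 34.0 FPKM) crossed and did not differ beyond their spread. The ratio of Eif2b2 to Eif2b4 footprints varied little, from 2.77 and 2.52 in OPCs to 2.72 and 2.38 in oligodendrocytes. The ratio of Eif2b1 to Eif2b4 footprints was 1.35 and 1.78 in OPCs and 1.42 and 0.884 in oligodendrocytes. In RNA-seq, Eif2b2 exceeded between 72.5% and 82.9% of all listed transcripts in FPKM, Eif2b1 between 62.2% and 82.4% and Eif2b4 between 52.6% and 62.8%.

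The codons that the study examined, UUU for phenylalanine and AAA for lysine, were counted in each CDS. Eif2b1 has 4 UUU and 9 UUC codons, a UUU share of 0.308, and 12 AAA and 15 AAG codons, an AAA share of 0.444. Eif2b2 has UUU and AAA shares of 0.467 and 0.267, and Eif2b4 of 0.429 and 0.290. The median over all listed transcripts was 0.429 for UUU and 0.368 for AAA. Eif2b1 was therefore below the median for UUU and above it for AAA, whereas Eif2b2 was above it for UUU and below it for AAA.

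The substrate of eIF2B, the factor eIF2, has an alpha, a beta and a gamma subunit, encoded by Eif2s1, Eif2s2 and the X and Y copies Eif2s3x and Eif2s3y. In RNA-seq 3 of these 4 transcripts were called lower and 1 higher in oligodendrocytes, and in footprints 1 was lower and 1 higher, beside 20.2% lower and 13.0% higher among all transcripts in RNA-seq and 10.8% and 12.8% in footprints. Eif2s1, whose protein is the target of the eIF2alpha kinases, fell in footprints from 267 and 301 FPKM to 128 and 164 FPKM, with a log2 fold change of -0.97 (standard error 0.17, limma adjusted p = 0.0274). In RNA-seq the log2 fold change of Eif2s1 was -1.03 (limma adjusted p = 0.0142). Eif2s2 fell in RNA-seq, with -0.99 (limma adjusted p = 0.0116), and had -0.79 in footprints (limma adjusted p = 0.0555), where it passed with the replicate block. Eif2s3x fell in RNA-seq, with -0.64 (limma adjusted p = 0.0381), and had -0.32 in footprints (limma adjusted p = 0.211). Eif2s3y rose in RNA-seq, with 1.04 (limma adjusted p = 0.00745), from 27.3 and 28.3 FPKM to 53.5 and 61.4 FPKM, and in footprints, with 0.82 (limma adjusted p = 0.0286). The sequence shared by the X and Y copies was not measured, and how reads were split between them was not tested. Their sum in RNA-seq was 75.1 and 85.6 FPKM in OPCs, against 86.1 and 96.1 FPKM in oligodendrocytes, so the sum of the copies was not lower in oligodendrocytes. Their footprints summed to 142 and 161 FPKM in OPCs, against 146 and 164 FPKM in oligodendrocytes.

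Without OPC replicate 1 or without OPC replicate 2, none of the 4 eIF2 transcripts was called by limma in RNA-seq (4 and 3 had an unadjusted p under 0.05) or in footprints (2 and 2). Without oligodendrocyte replicate 2, Eif2s3y alone remained called in RNA-seq and none of the 4 in footprints, where 3 had an unadjusted limma p-value under 0.05. With median-ratio scaling, Eif2s1, Eif2s2 and Eif2s3y were called in RNA-seq and Eif2s3y in footprints, and the direction was the same for all 4. Footprints of Eif2s1 were 4.55 and 4.79 times the mean of the 3 eIF2B subunits in OPCs and 2.60 and 3.40 times in oligodendrocytes. Those of Eif2s2 were 4.62 and 4.75 times the mean in OPCs and 2.87 and 3.998 times in oligodendrocytes. The mean of the 3 eIF2B subunits itself was 58.7 and 62.8 FPKM in the footprints of OPCs, against 49.1 and 48.2 FPKM in those of oligodendrocytes. Whether eIF2 and eIF2B differ in their change was not tested.

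**Figure D4:**
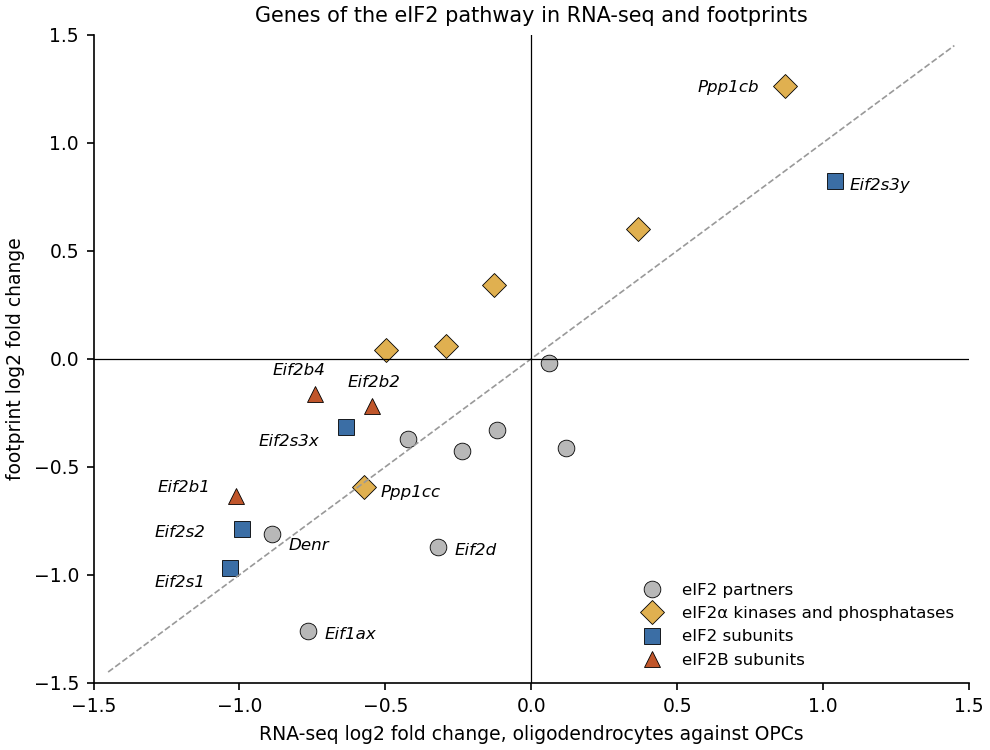
Log2 fold change, oligodendrocytes against OPCs, in RNA-seq (x axis) and footprints (y axis) for the eIF2B subunits, the eIF2 subunits, the eIF2 partners and the eIF2α kinases and phosphatases; the dashed line marks equal changes, and Eif2ak2, at 0 FPKM in 1 footprint library, is not drawn. The 3 eIF2B subunits lie to the left of 0 and above the dashed line, near Eif2s3x and Eif2s2, and Eif2s3y and Ppp1cb lie at the upper right.

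Partners of eIF2 in initiation were listed for 8 of 12 genes. In RNA-seq 2 of 8 were called lower and 0 higher, with a median log2 fold change of -0.28, and in footprints 2 were lower and 0 higher, with a median of -0.42. The share of all transcripts called lower was 20.2% in RNA-seq and 10.8% in footprints. These were Eif1ax, which encodes the scanning factor eIF1A (-0.77 in RNA-seq and -1.26 in footprints), and Denr, a factor of re-initiation and ribosome recycling (-0.89 and -0.81). With the replicate block Eif1 was called lower in footprints as well. When a culture was left out in turn, none of the 8 partners was called in RNA-seq, with 2 at an unadjusted limma p under 0.05 in each case, and in footprints the calls were 0 without either OPC culture and at most 2 otherwise. Of the kinases and phosphatases of eIF2alpha, 7 of 12 were listed, and 2 were called lower and 1 higher in RNA-seq, and 1 lower and 1 higher in footprints, which is to be read beside the shares over all transcripts. Ppp1cb, a catalytic subunit of protein phosphatase 1, rose by a log2 fold change of 0.87 in RNA-seq and 1.26 in footprints, while its paralog Ppp1cc fell, with -0.57 and -0.59. Eif2ak2, the kinase PKR, was called lower in RNA-seq (4.27 and 4.38 FPKM in OPCs, against 1.41 and 0.628 FPKM in oligodendrocytes). With median-ratio scaling Denr and Ppp1cc no longer passed in either readout, and with the replicate block Ppp1cc no longer passed in footprints. None of the 7 was called without either OPC culture, in RNA-seq or in footprints, where 2 had an unadjusted limma p under 0.05 each time. Eif2ak3, the kinase PERK, gave 12.2 and 12.0 FPKM in OPCs, against 16.1 and 15.3 FPKM in oligodendrocytes, and did not pass (log2 fold change 0.37, limma adjusted p = 0.210).

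Of the transcripts induced in the ISR, which starts when eIF2B is inhibited, some were called lower and some higher. Of 16 tested in RNA-seq, 5 were called lower and 3 higher, with a median of -0.52, and of 17 tested in footprints 1 was lower and 2 were higher, with a median of -0.76. Among all transcripts the shares were 20.2% lower and 13.0% higher in RNA-seq and 10.8% and 12.8% in footprints. Called or not, 12 of the 16 had a negative log2 fold change in RNA-seq and 14 of the 17 in footprints. Among all transcripts tested, 60.0% were negative in RNA-seq and 55.5% in footprints. Lower in RNA-seq were Mthfd2, Cebpb, Slc7a5, Phgdh and Aldh18a1, which serve amino acid transport and synthesis and folate metabolism except for the transcription factor Cebpb. Higher were Vldlr, Slc7a11 and the stress-induced transcription factor Ddit3. Footprints of Slc7a11, a cystine transporter, went the other way, with 5.36 and 4.46 FPKM in OPCs against 4.01 and 0 FPKM in oligodendrocytes, and did not pass (limma adjusted p = 0.341). In the footprints of oligodendrocyte replicate 2, 7 of the 19 listed ISR transcripts were at 0 FPKM, against 1 to 3 in the other footprint libraries. Among all listed transcripts, 31.1% were at 0 FPKM in that library, against 14.7% to 20.5% in the other footprint libraries. Footprints of Ddit3 rose from 1.31 and 1.34 FPKM to 10.6 and 9.27 FPKM, by 2.81 on the log2 scale (limma adjusted p = 0.0311), and Vldlr was higher in footprints as well, but with the replicate block Ddit3 no longer passed in footprints. Asns, a common reporter of the response, gave 42.3 and 39.8 FPKM in the RNA-seq of OPCs, against 26.4 and 33.3 FPKM in that of oligodendrocytes, and did not pass (limma adjusted p = 0.108). Without OPC replicate 1 only Vldlr was called in RNA-seq, and without OPC replicate 2 none was (7 had an unadjusted limma p under 0.05). Footprint calls were 0 without either OPC culture (3 and 4 unadjusted in limma), 8 lower and 2 higher without oligodendrocyte replicate 1, and 2 lower and 1 higher without oligodendrocyte replicate 2. The footprint median of the list ranged from -1.13 without oligodendrocyte replicate 1 to -0.29 with no filter on low values. Atf4 was not analysed here.

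Of the other initiation factors, 1 of 8 eIF3 subunits (Eif3b) was called lower in RNA-seq and 3 (Eif3b, Eif3f and Eif3m) in footprints, with 0 higher in either, beside 20.2% of all transcripts lower in RNA-seq and 10.8% in footprints. Of 7 eIF4 factors, 4 (Eif4a1, Eif4e, Eif4g1 and Eif4h) were lower and 1 (Eif4a2) higher in RNA-seq, and 3 (Eif4e, Eif4e2 and Eif4g1) were lower and 2 (Eif4a2 and Eif4g3) higher in footprints, against 13.0% and 12.8% of all transcripts higher. Of 8 other leukodystrophy genes of the ribosome and tRNA axis, 3 were called lower in RNA-seq and 0 higher, with a median of -0.62, where 20.2% of all transcripts were lower and 13.0% higher. These were Polr1c, a shared subunit of RNA polymerases I and III, Aimp1, a scaffold of the tRNA synthetase complex, and the mitochondrial synthetase Ears2. In footprints, Polr1c (-1.21) and Aimp1 (-0.54) were lower without the pairing, but with the replicate block neither passed and Aimp2 and Polr3k were called instead. That block also added Eif3i to the calls in both readouts, Eif4e2 and Aimp2 in RNA-seq and Eif4a1 in footprints, and it removed Eif4g3 in footprints. With median-ratio scaling 0 of 8 eIF3 subunits were called in RNA-seq, and of 7 eIF4 factors 1 was lower and 2 were higher. Without oligodendrocyte replicate 2, the calls in RNA-seq were 0 of 8 for eIF3, 0 of 7 for eIF4 and 2 of 8 for the leukodystrophy genes. Without either OPC culture, no member of these 3 lists was called in RNA-seq or in footprints, where between 1 and 5 of each list had an unadjusted limma p under 0.05. In the main fit over all cultures, no change in RD was called by limma in any of these lists. Ears2, at 0 FPKM in the footprints of oligodendrocyte replicate 2, had log2 changes in RD from -4.39 to 1.64 over the alternative settings.

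Transcripts with the pattern most like each subunit were ranked by the root mean square difference of their log2(FPKM + 0.1) values, centred over the 8 libraries, among 8056 transcripts. Nearest to Eif2b1 were Mlc1 (0.117), a membrane protein of astrocytes, Orc5 (0.136), of the origin recognition complex, and Kif2a (0.138), a kinesin. Nearest to Eif2b2 were the spliceosome-associated Ctnnbl1 (0.101), the actinin Actn4 (0.107) and the zinc finger protein Zpr1 (0.135). Nearest to Eif2b4 were the importin Kpna6 (0.0913), the ubiquitin-conjugating enzyme Ube2z (0.1001) and the membrane protein Pgrmc2 (0.1003). Eif2b2 and Eif2b4 lay at 0.148 from each other, which ranked Eif2b4 at 12 for Eif2b2. Eif2b1 lay further off, at 0.394 from Eif2b2 and 0.430 from Eif2b4.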

How the data were processed

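Values were used as deposited: the authors gave FPKM for RNA-seq on whole transcripts and for footprints (MNase, monosomes) on the CDS, after adapter trimming, mapping to GRCm38 with HISAT2 2.1.0 and tabulation with StringTie 1.3.5 and ballgown on canonical coding transcripts of Gencode vM9. Replicates were kept apart, and the filter on listed transcripts is not given in the sources used here. Libraries were grouped by their labels. Differential abundance was tested two-sided on log2(FPKM + 0.1) by limma 3.58.1 (R 4.3.3; eBayes, variance trend). Transcripts had to average 1 FPKM or more over the 4 libraries of a kind, or in both kinds for RD, and the Benjamini-Hochberg adjustment ran over all transcripts tested. The scripts were tested on simulated data. Coordinates, codons and start sites come from Gencode vM21 (GRCm38), and RefSeq starts from GRCm38.p6. Depth was estimated from the steps of FPKM times length, and can be off by a whole-number factor. The members and gene lists were chosen with earlier results of these data known; of each list, called genes or the most abundant are named, and for each member the 3 nearest patterns. Some genes of the lists are not reported here and were left out of their counts. By the study's methods the oligodendrocyte cultures correspond to the OPC replicates, and matching them by number is an assumption made here. Deviations of same-numbered cultures from the group means had a Pearson correlation across transcripts of 0.108 in RNA-seq and 0.0860 in footprints. Alternatives were the pseudocount, the filter, the scaling, the trend, the pairing, one fit over all libraries and leaving out each culture.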

Additional observations from a re-analysis of the deposited data

How the results depend on the processing

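Under 12 alternatives for each readout, 101 log2 fold changes of the members kept their direction and their side of the threshold, 6 came to pass it and 1 reversed. In RNA-seq, Eif2b1 and Eif2b2 passed without oligodendrocyte replicate 1, Eif2b1 with a pseudocount of 1 FPKM (-0.96), a mean of at least 5 FPKM (-1.01, adjusted p = 0.0365 in limma) and the replicate block that pairs the cultures (-1.01), and Eif2b4 passed in one fit over all 8 libraries (-0.74, limma adjusted p = 0.0493). With each culture left out in turn, the RNA-seq log2 fold change ranged from -1.38 to -0.64 for Eif2b1, from -0.93 to -0.16 for Eif2b2 and from -0.92 to -0.56 for Eif2b4, and that of footprints from -0.86 to -0.41, from -0.26 to -0.17 and from -0.28 to -0.04. The log2 change in RD ranged from 0.23 to 0.53, from -0.08 to 0.73 and from 0.28 to 0.88, with Eif2b2 reversed without oligodendrocyte replicate 2 (-0.0794). The cause was not tested. A culture left alone in its group is assumed to vary like the other group. Depth limits Eif2b4 most, with 32.9 estimated RNA-seq reads in oligodendrocyte replicate 2, a number that can be off by a whole-number factor.

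Counts of calls over all transcripts moved by more than 1.5 times as follows. RNA-seq calls were 2772, 1715 with no filter, and 364 to 2599 with a culture left out (532 without OPC replicate 1, 364 without OPC replicate 2, 1633 without oligodendrocyte replicate 2). Footprint calls were 1969, 1163 with no filter, 1036 with no variance trend, and 0 to 3442 with a culture left out (0 without OPC replicate 1 or 2, with 1936 and 1927 at an unadjusted p under 0.05, 3442 without oligodendrocyte replicate 1 and 778 without replicate 2). RD calls were 1, 3 with a pseudocount of 0.01 FPKM or median-ratio scaling, 14 with no variance trend, 0 with RD tested per culture (539 unadjusted), and 0 to 883 with a culture left out. The replicate block gave 3323, 1735 and 1 calls and changed no other call of a member. Median-ratio scaling moved the mean RNA-seq level of Eif2b2 in OPCs to 29.1 FPKM and the RD of Eif2b1 in OPCs to 2.16, by more than the spread of the cultures.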
